A study of Mus musculus with 20 samples.

Results

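The genes of S phase and DNA replication were followed in CD8+ T cells sorted from tumours, in a set of 48 genes chosen by symbol for their roles in copying DNA. All 48 were found among the 45777 gene symbols of the deposited table, and all 48 reached 1 FPKM in at least 5 libraries, so that each was among the 11794 genes tested. The T cells came from MC38 tumours, grown from a colon carcinoma line of the mouse that was engineered for high human PD-L1, in C57BL/6 mice that carry human PD-1, human PD-L1 and human 4-1BB. Treatment began at a mean tumour volume of 150 to 200 mm3, and cells were taken on day 4. There were 5 libraries from each of 4 groups. The Combination group had received ABL503 with pembrolizumab, the ABL503 group ABL503 alone and the Pembrolizumab group pembrolizumab alone, while the Control group is labelled with no agent. Pembrolizumab is a blocking antibody to PD-1, and ABL503 is a bispecific antibody to PD-L1 and 4-1BB. The humanised receptors and the PD-L1-bearing tumour line were common to all 4 groups. Doses, schedule and age of the mice are not given in the sources used here, nor is it stated whether libraries or animals were pooled.

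Before a cell copies its DNA, the origin recognition complex with Cdc6 and Cdt1 loads the ring-shaped MCM helicase onto origins. Cyclin E and E2F factors then carry the cell past the G1/S boundary, Cdc45 and the GINS complex switch the helicase on, and polymerases extend both strands with the sliding clamp PCNA, while ribonucleotide reductase and thymidylate synthase supply nucleotides. T cells stimulated through their receptor and costimulatory receptors divide fast, and transcripts of this machinery are therefore used as a readout of cycling cells.

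The deposited values were judged to be FPKM, fragment counts scaled to gene length and library size, from their range and decimals. Sums over all genes lay between 575918 and 654333 per library. Read depth is unknown, so the precision of each value rests on the spread between libraries. No label ties a library to its own mouse, and the p-values therefore measure only how far these libraries scatter. The 6 CD8 T-cell markers checked summed to 4648 to 6571 FPKM in Combination, 4296 to 4837 in ABL503, 4588 to 5634 in Pembrolizumab and 3744 to 5689 in Control. Cd4 stayed under 1 FPKM in every library. Among other markers of CD4 and regulatory T cells, the highest values were 1.79 FPKM for Foxp3, 4.79 for Ikzf2 and 11.4 for Cd40lg. Of 10 macrophage and monocyte markers, Csf1r, Adgre1, C1qa, Itgam and Fcgr1 stayed under 1 FPKM in every library, and 2 reached a mean of 1 FPKM in Combination, 3 in ABL503, 4 in Pembrolizumab and 5 in Control. The sum of all 10 was 19.5 to 33.0 FPKM in Combination, 25.6 to 79.2 in ABL503, 26.0 to 80.005 in Pembrolizumab and 14.7 to 127 in Control. The highest values in any library were 64.9 FPKM for Lyz2, 36.8 for Cd68, 22.0 for Cd14, 13.1 for C1qb and 3.72 for C1qc.

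Promoter sequences, 250 bases before to 50 bases after the transcription start in RefSeq on GRCm38.p6, were matched by symbol for 39 of the 48 genes. Of these 39, 24 (61.5%) held at least 1 E2F motif, searched on both strands as the letters TTCCCGC, the letters TTGGCGC, the letters TTCGCGC or else TTGCCGC, against 10.9% of the 27025 genes with a promoter in the table and 19.7% of the 8087 that were also tested. A CCAAT box, searched as CCAAT on both strands, was found in 24 of 39 (61.5%), against 41.1% of all and 43.5% of tested genes. The CHR element, searched as TTTGAA on both strands, was found in 5 of 39 (12.8%), against 20.2% and 15.0%. A gene with more than 1 promoter was counted once, and a letter match is a description and not a site shown to be bound. Shown here are Cdt1 and Slbp, which passed a test below, and Mcm5 and Rrm2 as examples from the helicase and from nucleotide supply.
In the first 3, capitals mark the E2F motifs. In Slbp, in which none of the E2F letters was found, they mark the 3 CCAAT boxes.
Cdt1, chr8:122567765-122568064, plus strand: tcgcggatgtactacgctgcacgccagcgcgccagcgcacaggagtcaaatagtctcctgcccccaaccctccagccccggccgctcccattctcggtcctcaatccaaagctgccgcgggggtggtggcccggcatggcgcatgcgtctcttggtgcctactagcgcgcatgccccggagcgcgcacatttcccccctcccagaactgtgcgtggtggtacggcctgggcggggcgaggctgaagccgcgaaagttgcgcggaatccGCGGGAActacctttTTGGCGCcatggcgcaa
Mcm5, chr8:75109259-75109558, plus strand: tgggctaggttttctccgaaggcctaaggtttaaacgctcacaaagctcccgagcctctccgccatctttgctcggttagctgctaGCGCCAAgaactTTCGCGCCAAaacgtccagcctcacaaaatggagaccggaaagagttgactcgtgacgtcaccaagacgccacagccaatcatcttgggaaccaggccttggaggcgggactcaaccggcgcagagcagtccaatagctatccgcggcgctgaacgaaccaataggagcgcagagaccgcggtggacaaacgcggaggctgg
Rrm2, chr12:24708004-24708303, plus strand: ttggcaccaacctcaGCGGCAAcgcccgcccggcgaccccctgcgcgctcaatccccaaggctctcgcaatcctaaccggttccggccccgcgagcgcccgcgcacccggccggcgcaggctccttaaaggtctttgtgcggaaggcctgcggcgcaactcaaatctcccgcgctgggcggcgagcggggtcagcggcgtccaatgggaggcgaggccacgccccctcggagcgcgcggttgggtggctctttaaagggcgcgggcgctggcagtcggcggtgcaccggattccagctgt
Slbp, chr5:33652525-33652824, minus strand: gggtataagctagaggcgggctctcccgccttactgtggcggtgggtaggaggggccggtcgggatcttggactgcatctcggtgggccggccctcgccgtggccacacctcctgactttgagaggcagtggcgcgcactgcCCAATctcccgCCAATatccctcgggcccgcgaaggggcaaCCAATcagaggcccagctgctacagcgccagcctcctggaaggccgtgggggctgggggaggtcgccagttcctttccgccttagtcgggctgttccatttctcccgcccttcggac
The E2F matches of Cdt1 began 19 and 34 bases after the start. Those of Mcm5 began at positions -164, -152 and -149 relative to the start, the last pair overlapping, and the single match of Rrm2 began at -235. The CCAAT boxes of Slbp began at -108, -97 and -67. Mcm5 also held 3 CCAAT boxes and Rrm2 held 1.

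Averaged over the 20 libraries, the 48 genes had a median level of 20.02 FPKM, against 6.62 FPKM over all genes tested. Pcna, the sliding clamp that tethers polymerases to DNA, was the highest at 398 FPKM, and Slbp, which binds the stem-loop at the end of replication-dependent histone mRNAs, followed at 216 FPKM. At the other end stood Mcm10, a helicase activation factor, with 1.06 FPKM, and the catalytic subunits of polymerases epsilon and delta, Pole with 1.5 FPKM and Pold1 with 1.61 FPKM. In all, 2 genes averaged at least 100 FPKM, 29 lay between 10 and 100, and 17 lay below 10. By role, the median level was 52.8 FPKM for the clamp, its loader and the single-strand binding proteins and 23.7 FPKM for nucleotide synthesis. It was 22.5 FPKM for licensing, 19.05 FPKM for Okazaki fragment processing and 10.9 FPKM for helicase activation and the fork. The lowest role medians were 6.78 FPKM for polymerases and primase, 5.62 FPKM for chromatin assembly and maintenance methylation, and 4.61 FPKM for G1/S regulators.

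**Figure D1:**
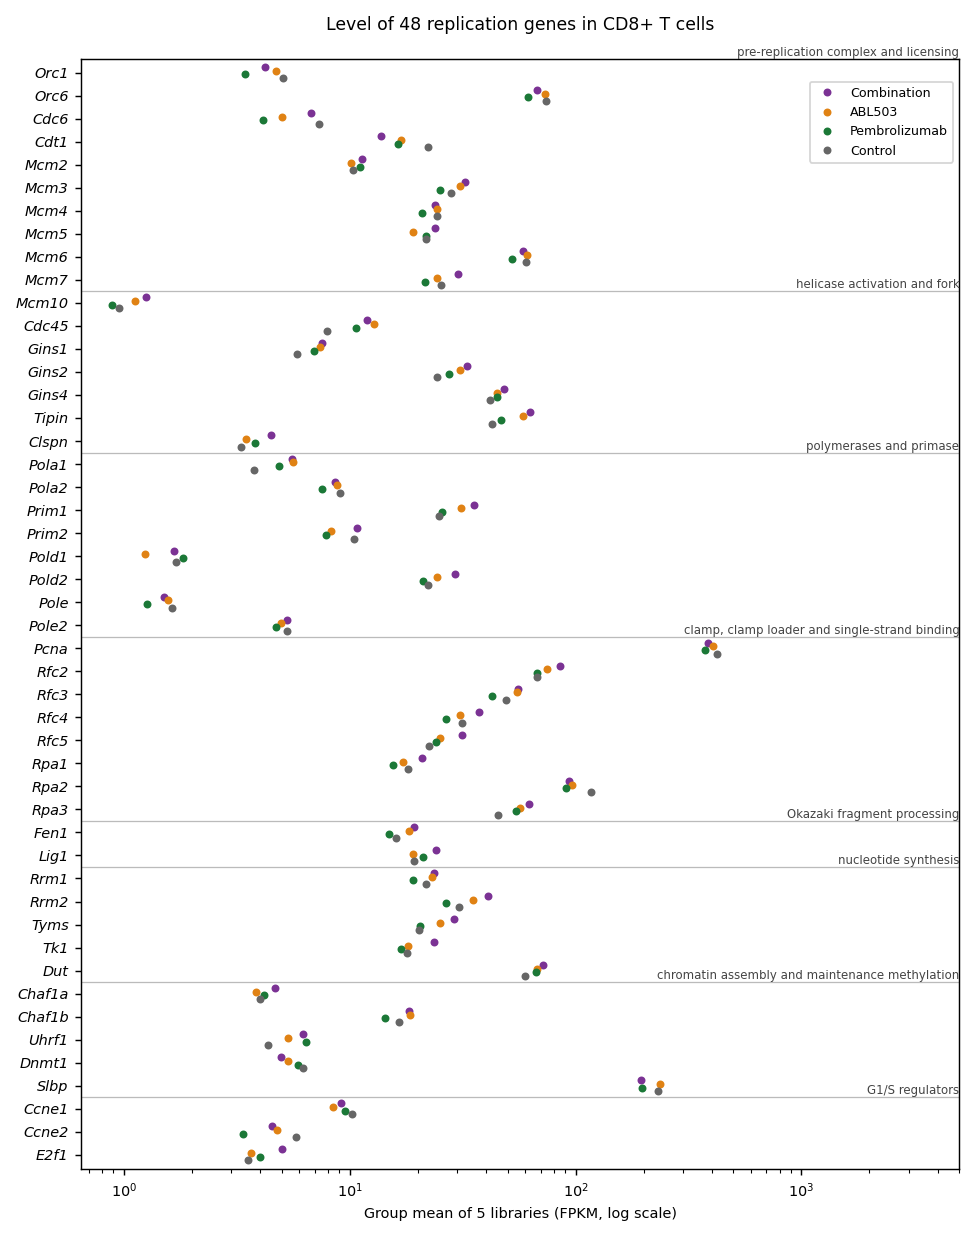
Mean level of each of the 48 genes in FPKM (log scale) in Combination, ABL503, Pembrolizumab and Control, 5 libraries per point, with genes grouped by role. The 4 group means of a gene lie close together beside the spread between genes, from Mcm10 with 1.06 FPKM to Pcna with 398 FPKM.

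Subunits of 1 complex did not share 1 level, even per length. Among the 6 helicase subunits, Mcm6 averaged 58.1 FPKM, Mcm3 29.2, Mcm7 25.3, Mcm4 23.4, Mcm5 21.6 and Mcm2 10.7 FPKM. The clamp loader subunits ran in the order Rfc2 at 73.9 FPKM, Rfc3 at 50.8, Rfc4 at 31.5 and Rfc5 at 25.8 FPKM. Of the single-strand binding trimer, Rpa2 averaged 99.5 FPKM, Rpa3 54.9 and Rpa1 17.9 FPKM, so that the large subunit was the lowest. Gins4 at 45.0 FPKM and Gins2 at 29.0 FPKM stood above Gins1 at 6.93 FPKM. In each of these complexes the proteins act in equal numbers, whereas a bulk transcript level depends on how many cells carry the transcript as well as on its amount per cell, and these cannot be told apart here. Pcna shares sequence with the processed copy Pcna-ps2, which was listed at 15.4 to 22.2 FPKM, and how reads were divided between them is not stated.

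Libraries differed within their groups in the level of the whole set. For each library, the median over the 48 genes was taken of log2(FPKM + 1) minus the gene's mean over all 20 libraries. In Combination it was 0.30, 0.52, 0.09, -0.12 and -0.11 in libraries 1 to 5, in ABL503 0.20, -0.07, 0.01, 0.07 and -0.12, in Pembrolizumab -0.21, 0.35, -0.16, -0.24 and -0.22, and in Control -0.10, -0.06, 0.09, 0.04 and 0.03. Control libraries thus lay close together, Combination libraries were spread widely, and Pembrolizumab 2 stood apart from the other 4 of its group. Pembrolizumab 2 was the highest of its group for 43 of 48 genes (89.6%), as it was for 23.8% of all genes tested. Combination 2 was the highest of its group for 31 of 48 (64.6%, against 20.1% of all genes) and ABL503 1 for 23 of 48 (47.9%, against 20.9%). These libraries were singled out after their values were seen.

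The same libraries were high for 20 genes of G2 and mitosis, a list that shares no gene with the set. The matching median deviation of those genes was 0.55 in Combination 2, 0.36 in Pembrolizumab 2 and 0.17 in ABL503 1, and 0.34 in Combination 1. It ran from -0.13 to 0.55 in Combination, from -0.19 to 0.17 in ABL503, from -0.24 to 0.36 in Pembrolizumab and from -0.41 to 0.12 in Control. Over all genes tested, the median deviation of Combination 2, ABL503 1 and Pembrolizumab 2 was -0.01, -0.02 and -0.01, so the shift was not one of all genes.

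**Figure D2:**
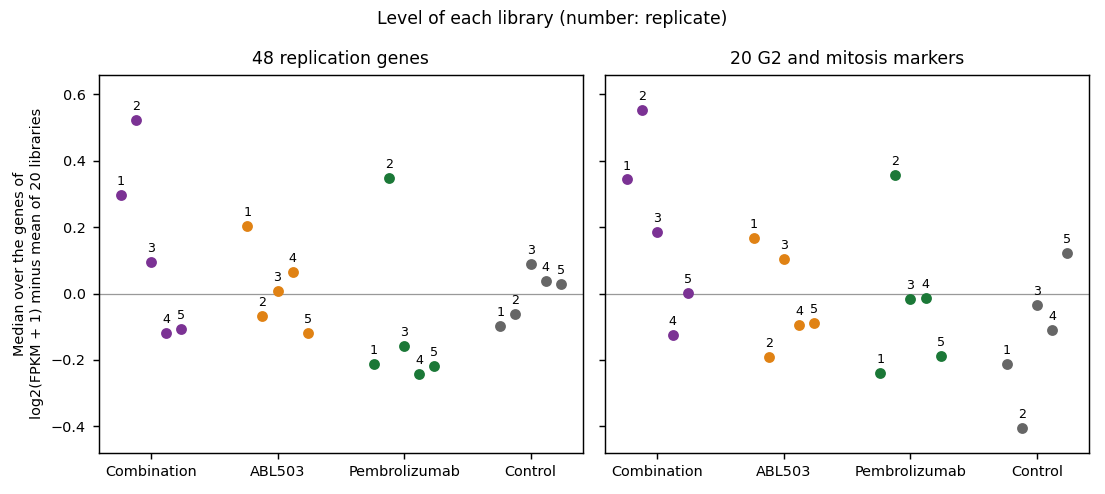
Median deviation of each library, in log2(FPKM + 1) minus the mean of 20 libraries, over the 48 replication genes (left) and over 20 G2 and mitosis markers (right), with groups in the order Combination, ABL503, Pembrolizumab, Control and numbers giving the replicate. On the left, Combination 2 at 0.52 and Pembrolizumab 2 at 0.35 are the highest points, and the 5 Control libraries lie between -0.10 and 0.09.

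**Figure D3:**
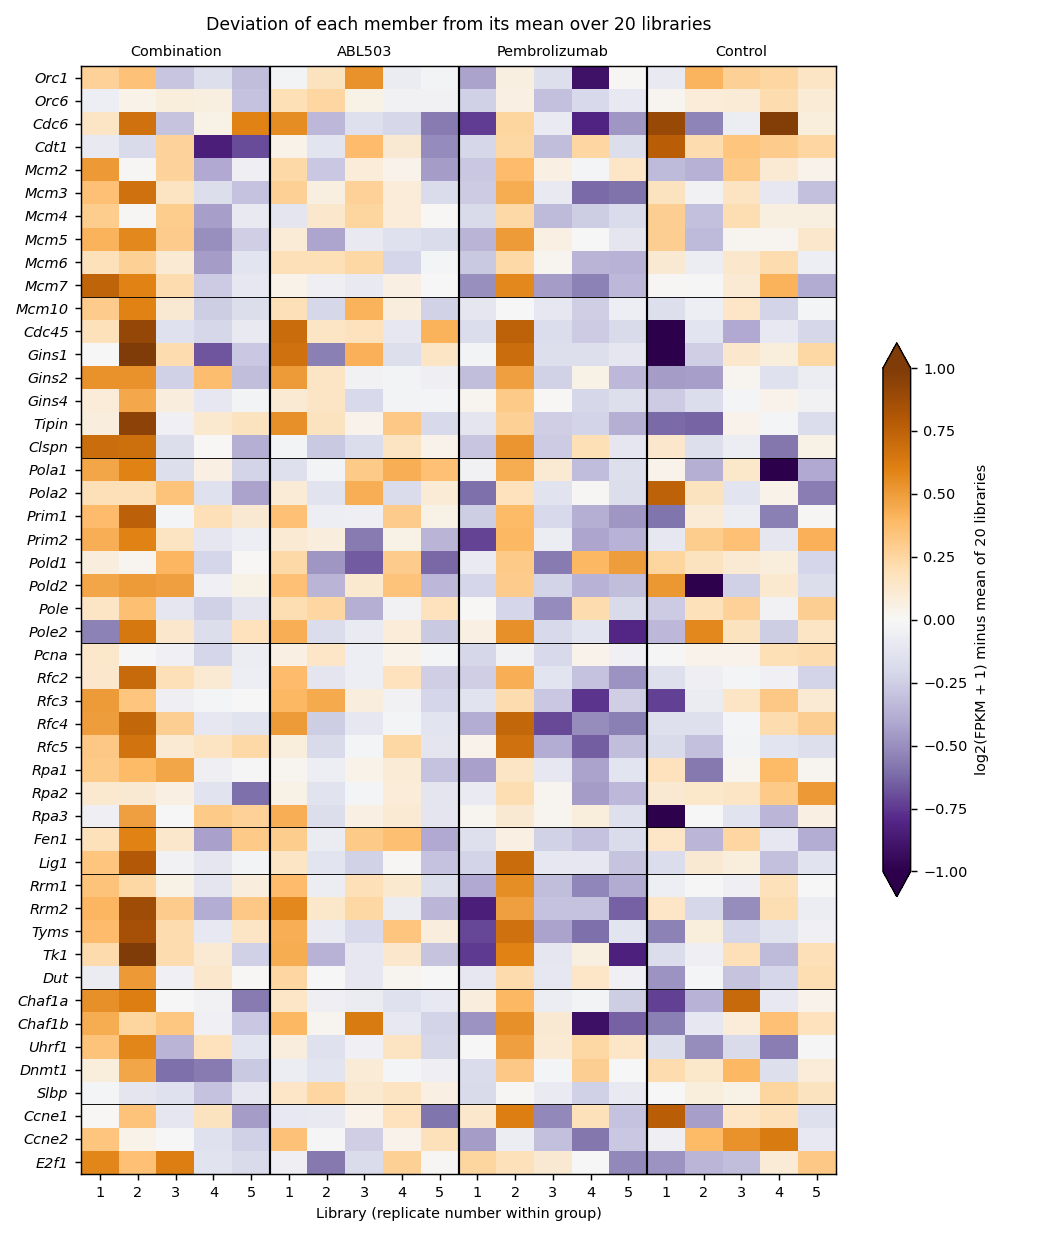
Deviation of each of the 48 genes in each of the 20 libraries, in log2(FPKM + 1) minus the gene's mean over all libraries, from violet (lower) to orange (higher), cut at -1 and 1. By their median over the 48 genes, the highest columns are Combination 2 (0.52), Pembrolizumab 2 (0.35) and Combination 1 (0.30), and rows such as Slbp and Pcna vary little.

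Few of the 48 genes passed the test in any comparison, and every call was a fall. A change is a difference of log2(FPKM + 1), a scale on which the fold change of a low gene is understated, and a call is a Benjamini-Hochberg adjusted p under 0.05 in limma over the 11794 genes. In Combination against Control, Cdt1 and Slbp were called lower and none of the 48 was called higher, while 12.6% of all genes tested were called. At an unadjusted p under 0.05 by limma, 13 of the 48 genes differed in that comparison, 10 higher and 3 lower. Of all 11794 genes, 3314 did, 1580 higher and 1734 lower. In Pembrolizumab against Control, Ccne2 fell and no other gene was called, against 5.55% of all genes. In ABL503 against Control none of the 48 was called, with 4 of 48 under an unadjusted p of 0.05. Of all genes, 0.619% were called in that comparison and 11.0% were under an unadjusted p of 0.05.

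The remaining comparisons added no other gene. Slbp fell in Combination against ABL503, where 4.53% of all genes were called, and in the main effect of pembrolizumab, where 13.5% were called. That main effect sets the mean of Combination and Pembrolizumab against the mean of ABL503 and Control. None of the 48 was called in Combination against Pembrolizumab (0.161% of all genes called), in ABL503 against Pembrolizumab (1.28%), in the main effect of ABL503 (0.772%) or in the interaction (0.203%). At an unadjusted p under 0.05 by limma, these 4 comparisons held 12, 4, 12 and 3 of the 48 genes, against 13.2%, 13.5%, 13.6% and 10.3% of all genes tested. All 12 in Combination against Pembrolizumab were higher in Combination, as 7.16% of all genes were at that threshold. Of the 12 in the main effect of ABL503, 11 were higher with ABL503, as 7.43% of all genes were.

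The medians over the 48 genes were small. In Combination against Control the median change was 0.19, against -0.04 over all genes, with 32 genes above 0. It was 0.04 against -0.01 in ABL503 against Control, with 28 genes above 0, and -0.08 against -0.03 in Pembrolizumab against Control, with 17 above 0. Of all genes tested, 45.8%, 48.6% and 45.5% were above 0 in these 3 comparisons, which share the Control libraries. The 48 genes tended to be high or low together within a library, so their signs are not independent. In Combination against Pembrolizumab the median was 0.19 against 0.00, and 42 of 48 genes were above 0, as 50.6% of all genes were. In Combination against ABL503 it was 0.08 against -0.03, and in ABL503 against Pembrolizumab 0.17 against 0.02. The interaction had a median of 0.19 against 0.00, the main effect of ABL503 0.12 against 0.00 and that of pembrolizumab 0.01 against -0.03. The last of these turned to -0.02 when each library was rescaled to an equal sum.

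These medians moved with the libraries that stood apart. Without Pembrolizumab 2, the median was -0.20 in Pembrolizumab against Control, 0.30 in Combination against Pembrolizumab and 0.29 in ABL503 against Pembrolizumab. Pembrolizumab against Control then held 2 calls, Rrm1 and Ccne2, with 460 of all 11794 genes called. Combination against Pembrolizumab held 2, Rfc5 and Rrm1, with 49 of all genes, and ABL503 against Pembrolizumab held 1, Rrm1, with 119. The main effect of ABL503 then had a median of 0.18 and 3 calls, Prim1, Rfc5 and Tyms, with 104 of all genes called. The interaction had a median of 0.26 and no call, with 21 of all genes. Without Combination 2, the median was 0.10 in Combination against Control, 0.12 in Combination against Pembrolizumab and -0.01 in Combination against ABL503. With Combination 1 left out instead, these medians were 0.13, 0.16 and 0.07.

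The 95% intervals show what size of change in FPKM + 1 remained possible where no call was made. For genes near 1 FPKM, such as Mcm10, Pole and Pold1, the intervals do not bound the fold change in FPKM itself. The standard error of a pairwise change had a median of 0.19 over the 48 genes. In Combination against Control the interval lay within a 2-fold change of FPKM + 1 either way for 46 of 48 genes and within 1.5-fold for 19. For ABL503 against Control these counts were 45 and 31, and for Pembrolizumab against Control 47 and 27. For Combination against Pembrolizumab they were 44 and 18, for Combination against ABL503 48 and 29, and for ABL503 against Pembrolizumab 48 and 25. Both main effects had all 48 intervals within 2-fold, while the interaction had 38, with Cdc6, Ccne2 and Rrm2 among the 10 that reached further.

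**Figure D4:**
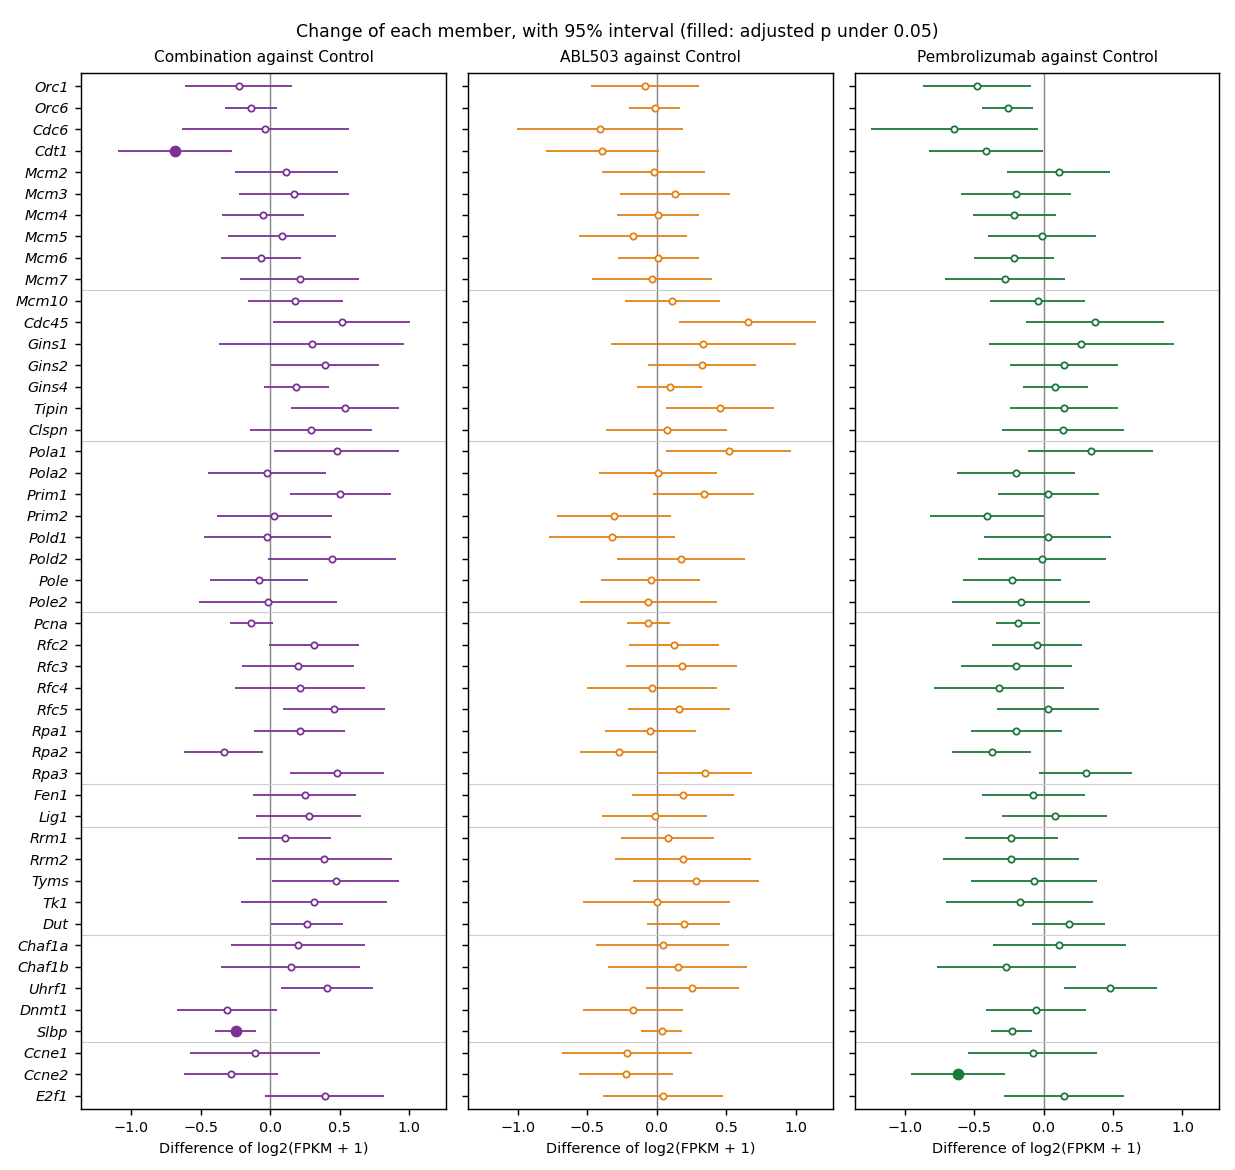
Change of each of the 48 genes against Control in Combination, ABL503 and Pembrolizumab, as a difference of log2(FPKM + 1) with its 95% interval, with filled points for an adjusted p under 0.05. The filled points are Cdt1 and Slbp in Combination and Ccne2 in Pembrolizumab, all below 0.

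In the licensing group of 10 genes, the origin recognition subunits Orc1 and Orc6, the loaders Cdc6 and Cdt1 and the helicase subunits Mcm2 to Mcm7, only Cdt1 was called. Cdt1, which brings the helicase to origins, had 15.6, 14.5, 20.3, 8.86 and 9.89 FPKM in Combination, 17.3, 15.2, 22.0, 18.2 and 11.4 in ABL503, 14.3, 19.8, 13.2, 19.9 and 14.8 in Pembrolizumab and 29.2, 19.6, 21.3, 20.8 and 19.9 in Control. Combination 4 and 5 were the lowest libraries and Control 1 the highest, and Combination overlapped Control only through Combination 3. Cdt1 fell to 13.8 ± 4.62 FPKM in Combination, against 22.1 ± 4.00 in Control (SD, n = 5 each, as for every mean below), a change of -0.68 (SE 0.20, limma adjusted p = 0.026). The adjusted p was 0.077 without Control 1, 0.073 without Combination 4 and 0.075 without Combination 5. It was 0.079 without the filter on low values, 0.052 in a fit of only Combination and Control, and 0.066 without the 2 libraries of lowest array weight, Control 1 and ABL503 3. In ABL503 and Pembrolizumab against Control, Cdt1 differed by -0.39 (SE 0.20, adjusted p = 0.48) and -0.41 (SE 0.20, adjusted p = 0.24).

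Cdc6, the other loader, had 6.06, 9.18, 4.20, 5.61 and 8.66 FPKM in Combination, 8.39, 4.03, 4.74, 4.52 and 3.31 in ABL503, 2.82, 6.59, 5.03, 2.62 and 3.60 in Pembrolizumab and 10.8, 3.38, 5.08, 11.6 and 5.76 in Control. Control split into a high pair and a lower trio, and all 4 groups overlapped. The difference from Control was -0.03 in Combination, -0.41 in ABL503 and -0.64 in Pembrolizumab (SE 0.29 each, adjusted p = 0.95, 0.63 and 0.21). Its interaction, 1.02 (SE 0.41, adjusted p = 0.37), was the largest of the 48 genes and did not pass.

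Mcm2, a subunit of the MCM ring, had 15.4, 10.6, 12.9, 7.72 and 10.1 FPKM in Combination, 12.6, 8.53, 11.3, 10.8 and 7.47 in ABL503, 8.54, 14, 11.0, 10.4 and 11.8 in Pembrolizumab and 8.15, 7.95, 13.3, 11.4 and 10.8 in Control. The 4 ranges lay over one another. Mcm5 had 28.6, 31.9, 26.3, 14.7 and 17.6 FPKM in Combination, 22.6, 15.5, 19.8, 19 and 18.5 in ABL503, 16.3, 30.3, 22.0, 21.0 and 19.3 in Pembrolizumab and 26.0, 16.6, 21.4, 21.4 and 23.2 in Control. Combination held both the highest and the lowest Mcm5 library. Against Control, Mcm2 differed by 0.12 in Combination, -0.02 in ABL503 and 0.11 in Pembrolizumab (SE 0.18 each), and Mcm5 by 0.09, -0.17 and -0.01 (SE 0.19 each), with no adjusted p below 0.70. Over the 10 licensing genes, 9 were below 0 in Pembrolizumab against Control, as 6424 of all 11794 genes were, with a median of -0.24. Of the 10, 4 had an unadjusted p under 0.05 by limma, namely Orc1, Orc6, Cdc6 and Cdt1, against 20.2% of all genes tested.

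The 7 genes of helicase activation and the fork are Mcm10, Cdc45 and the GINS subunits Gins1, Gins2 and Gins4, with Tipin and Clspn, which guard a stalled fork. None was called in any comparison. All 7 were above 0 in Combination against Control (median 0.30) and in ABL503 against Control (median 0.33), and 6 of 7 in Pembrolizumab against Control (median 0.15). Of all genes, 45.8%, 48.6% and 45.5% were above 0 in the same order. By library, the median deviation of the 7 genes was 0.19, 0.68, -0.04, -0.11 and -0.17 in Combination and 0.50, 0.15, 0.03, -0.03 and -0.02 in ABL503. In Control it was -0.45, -0.17, 0.02, -0.10 and -0.03, so Combination 2 and Control 1 stood furthest apart. The smallest adjusted p over the 7 genes was 0.062 in Combination against Control, for Tipin, which differed by 0.54 (SE 0.19). Cdc45 averaged 12 ± 4.78 FPKM in Combination, 12.9 ± 3.0 in ABL503, 10.7 ± 4.09 in Pembrolizumab and 7.93 ± 2.16 in Control. Its largest difference, 0.65 in ABL503 against Control (SE 0.24, adjusted p = 0.28), did not pass. Exons of Cdc45 overlap those of Ufd1 on the opposite strand, which averaged 54.0 FPKM against 10.9 FPKM for Cdc45.

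Among the 8 genes of polymerase alpha and primase (Pola1, Pola2, Prim1 and Prim2), polymerase delta (Pold1 and Pold2) and polymerase epsilon (Pole and Pole2), none was called. Prim1, the catalytic primase subunit, averaged 35.5 ± 8.06 FPKM in Combination, 31.2 ± 4.41 in ABL503, 25.6 ± 6.86 in Pembrolizumab and 24.8 ± 5.55 in Control. It differed by 0.50 in Combination against Control (SE 0.17, adjusted p = 0.062) and by 0.40 in the main effect of ABL503 (SE 0.12, adjusted p = 0.14). The role as a whole had a median change of 0.01 in Combination, -0.02 in ABL503 and -0.09 in Pembrolizumab, each against Control.

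The sliding clamp, its loader and the single-strand binding proteins held 8 genes and no call. Pcna had 435, 394, 386, 341 and 378 FPKM in Combination, 413, 439.6, 380.5, 409 and 392 in ABL503, 343, 387, 345, 407 and 386 in Pembrolizumab and 393, 408, 407, 456 and 459 in Control. The 2 highest values were in Control, and all groups overlapped. Pcna differed from Control by -0.13 in Combination (SE 0.08, adjusted p = 0.25), -0.06 in ABL503 (SE 0.08, adjusted p = 0.83) and -0.19 in Pembrolizumab (SE 0.08, adjusted p = 0.17). These intervals were narrow. In Combination the 95% interval was -0.29 to 0.02, in ABL503 -0.22 to 0.10 and in Pembrolizumab -0.34 to -0.03.

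Whether the loader or the single-strand binding trimer moved as a block was not tested. In Combination against Control, 6 of the 8 genes of this role were above 0, with Pcna and Rpa2 below. Of all genes, 45.8% were above 0 in that comparison. Rfc5, a loader subunit, had 31.5, 40.3, 27.1, 28.2 and 29.7 FPKM in Combination and 21.9, 20.1, 24.7, 22.9 and 22.4 in Control, with no overlap, but its difference of 0.46 did not pass (SE 0.18, adjusted p = 0.092). Exons of Rfc5 overlap those of Wsb2, which averaged 15.1 FPKM, on the opposite strand. Rpa2 lay below Control in all 3 treated groups, by -0.34 in Combination, -0.27 in ABL503 and -0.37 in Pembrolizumab (SE 0.14 each). Rpa3 of the same trimer lay above Control in all 3, by 0.48, 0.34 and 0.30 (SE 0.16 each). None of these 6 values passed, and the difference between both subunits was not tested. The 2 genes of Okazaki fragment processing, the flap nuclease Fen1 and the ligase Lig1, differed by 0.25 and 0.28 in Combination against Control, with no adjusted p below 0.32.

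The 5 genes of nucleotide synthesis are the ribonucleotide reductase subunits Rrm1 and Rrm2, thymidylate synthase Tyms, thymidine kinase Tk1 and the dUTPase Dut. Rrm2, the small subunit that makes the reductase active in S phase, had 42.3, 59.0, 39.3, 24.1 and 39.8 FPKM in Combination, 47.7, 35.0, 37.7, 30.0 and 24.7 in ABL503, 17.3, 45.0, 25.5, 25.6 and 20.02 in Pembrolizumab and 35.2, 27.4, 22.2, 36.8 and 30.3 in Control. Pembrolizumab 2 was far above the other 4 of its group, and Combination 4 below the other 4 of its own. Rrm2 differed by 0.62 in Combination against Pembrolizumab (SE 0.23, adjusted p = 0.26) and by 0.39 in Combination against Control (SE 0.23, adjusted p = 0.29).

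Tyms, which makes thymidylate, had 29.9, 41.8, 26.7, 21.2 and 25.5 FPKM in Combination, 31.1, 21.5, 19.8, 28.9 and 24.1 in ABL503, 13.5, 37.0, 16.7, 14.7 and 20.8 in Pembrolizumab and 15.4, 24.2, 19.5, 20.6 and 22.2 in Control. Again Pembrolizumab 2 was the high library of its group. Tyms differed by 0.54 in Combination against Pembrolizumab (SE 0.22, adjusted p = 0.29), by 0.47 in Combination against Control (SE 0.22, adjusted p = 0.16) and by 0.41 in the main effect of ABL503 (SE 0.15, adjusted p = 0.23). All 5 genes of nucleotide synthesis were above 0 in Combination against each of the other 3 groups, with medians of 0.19 against ABL503, 0.49 against Pembrolizumab and 0.32 against Control. Of all genes, 46.3%, 50.6% and 45.8% were above 0 in the same order. None of the 5 was called.

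Of the 5 genes grouped under chromatin assembly and maintenance methylation, the histone mRNA binding gene Slbp was the only one called. It had 211, 197, 194, 174 and 199 FPKM in Combination, 236, 255, 233, 239 and 224 in ABL503, 188, 216, 203, 181 and 201 in Pembrolizumab and 214, 227, 222, 256 and 240.3 in Control. Every Combination library lay below every ABL503 and Control library, and Pembrolizumab overlapped Control only because Pembrolizumab 2 stood just above Control 1. Slbp fell to 195 ± 13.5 FPKM in Combination, against 232 ± 16.4 in Control, a change of -0.25 (SE 0.07, limma adjusted p = 0.025). Against the 237 ± 11.2 FPKM of ABL503, the change in Combination was -0.28 (SE 0.07, adjusted p = 0.025). Pembrolizumab averaged 198 ± 13.6 FPKM and differed by -0.23 from Control (SE 0.07, adjusted p = 0.063), while ABL503 differed by 0.04 (SE 0.07, adjusted p = 0.90).

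Over both levels of ABL503, the main effect of pembrolizumab on Slbp was -0.26 (SE 0.05, adjusted p = 0.0025), a factor of 0.838 on the FPKM + 1 scale. The interaction was -0.06 (SE 0.10, adjusted p = 0.90), with a 95% interval of -0.26 to 0.15. The main effect passed under every alternative run, with values from -0.30 to -0.24 and adjusted p from 0.00049 to 0.0063. Leaving out single libraries ended the pairwise calls in 5 cases. Without Combination 4 the adjusted p was 0.071 against Control and 0.064 against ABL503, without Control 4 it was 0.068 against Control, and without ABL503 2 or ABL503 4 it was 0.073 or 0.056 against ABL503. Both calls were also lost in fits of only the groups compared, with an adjusted p of 0.073 against Control and 0.052 against ABL503.

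The other 4 genes of chromatin assembly and maintenance methylation were not called. Uhrf1, which reads hemimethylated DNA and recruits the maintenance methyltransferase, had 7.16, 8.65, 4.05, 6.27 and 4.91 FPKM in Combination, 5.77, 4.84, 5.26, 6.22 and 4.60 in ABL503, 5.42, 8.05, 5.93, 6.61 and 6.14 in Pembrolizumab and 4.74, 3.55, 4.66, 3.39 and 5.39 in Control. Every Pembrolizumab library stood above every Control library, with only a narrow gap, yet the difference of 0.48 did not pass (SE 0.16, adjusted p = 0.084). Dnmt1, the maintenance methyltransferase itself, had 5.90, 7.97, 3.28, 3.39 and 4.38 FPKM in Combination, 5.21, 4.93, 5.96, 5.41 and 5.29 in ABL503, 4.72, 7.08, 5.41, 6.94 and 5.49 in Pembrolizumab and 6.54, 6.13, 7.57, 4.84 and 5.92 in Control. It differed from Control by -0.31 in Combination (SE 0.17, adjusted p = 0.24), -0.17 in ABL503 (SE 0.17, adjusted p = 0.77) and -0.06 in Pembrolizumab (SE 0.17, adjusted p = 0.90). Chaf1a and Chaf1b, subunits of the CAF-1 histone chaperone, differed from Control by at most 0.27 in either direction.

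The 3 G1/S regulators are the cyclin E genes Ccne1 and Ccne2 and the transcription factor E2f1. Ccne2 had 5.90, 4.64, 4.47, 3.95 and 3.64 FPKM in Combination, 5.97, 4.44, 3.61, 4.61 and 5.22 in ABL503, 3.02, 4.24, 3.43, 2.66 and 3.52 in Pembrolizumab and 4.28, 6.16, 6.94, 7.49 and 4.11 in Control. Pembrolizumab held the 4 lowest libraries, and Control split into a high trio and a low pair that overlapped the other groups. Ccne2 fell to 3.37 ± 0.595 FPKM in Pembrolizumab, against 5.80 ± 1.54 in Control, a change of -0.62 (SE 0.16, limma adjusted p = 0.030). The adjusted p was above 0.05 when any of 7 libraries was left out (Control 2, 3 or 4 and Pembrolizumab 1, 3, 4 or 5), up to 0.083 without Control 4. It was also above 0.05 without the filter on low values (0.066), with quantile normalization (0.053) and in a fit of only these groups (0.075). Ccne2 exons overlap those of Ints8 on the opposite strand, which averaged 9.5 FPKM against 4.61 FPKM for Ccne2. Whether counting used the strand is not stated, so how reads from the shared stretch were divided between the 2 genes is unknown.

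Ccne1 had 9.05, 11.7, 8.28, 10.3 and 6.35 FPKM in Combination, 8.38, 8.42, 9.31, 10.4 and 5.67 in ABL503, 10.001, 14.4, 6.00, 10.4 and 7.17 in Pembrolizumab and 16.1, 6.42, 10.1, 10.4 and 8.04 in Control. All 4 ranges overlapped, and no difference from Control exceeded 0.21 in size (SE 0.22, adjusted p at least 0.78). E2f1, the activating factor of the G1/S programme, had 6.37, 5.32, 6.55, 3.49 and 3.32 FPKM in Combination, 3.77, 2.31, 3.33, 4.97 and 3.97 in ABL503, 4.88, 4.60, 4.34, 3.90 and 2.43 in Pembrolizumab and 2.53, 2.88, 2.97, 4.27 and 5.14 in Control. Combination split into a high trio and a low pair. E2f1 differed from Control by 0.39 in Combination (SE 0.21, adjusted p = 0.22), 0.04 in ABL503 (SE 0.21, adjusted p = 0.96) and 0.15 in Pembrolizumab (SE 0.21, adjusted p = 0.75).

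**Figure D5:**
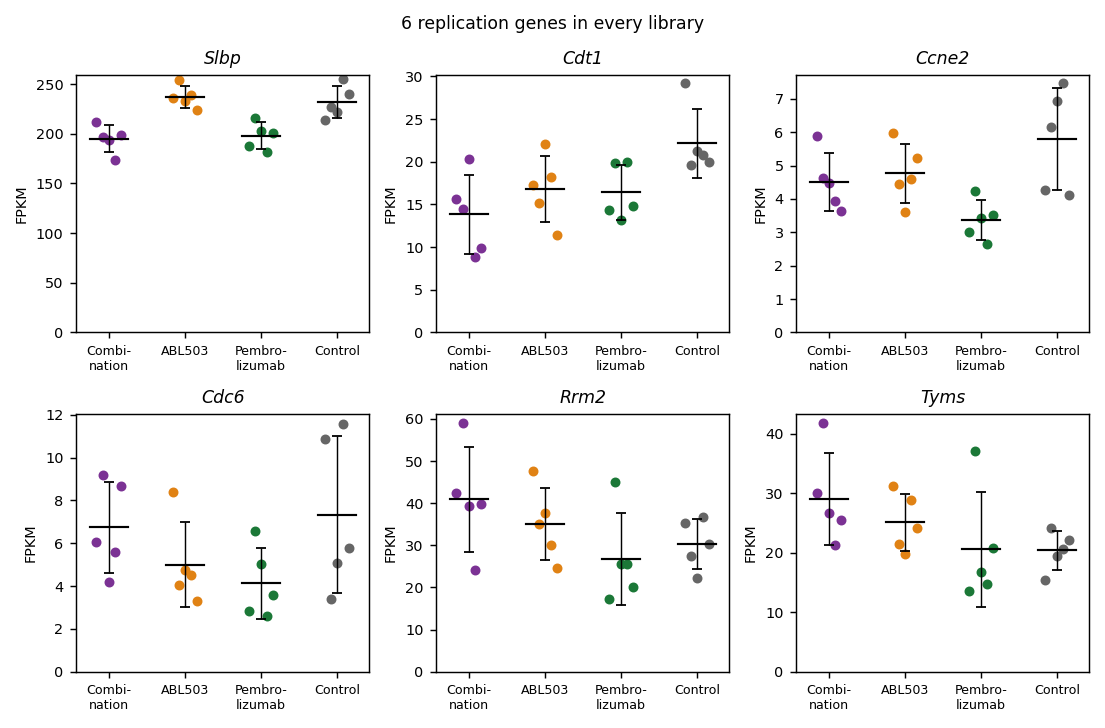
FPKM of Slbp, Cdt1, Ccne2, Cdc6, Rrm2 and Tyms in each of the 20 libraries, with groups in the order Combination, ABL503, Pembrolizumab and Control and with bars for the mean and SD of 5 libraries. Slbp averages 195 and 198 FPKM in the groups given pembrolizumab and 237 and 232 FPKM in ABL503 and Control, and Pembrolizumab 2 is the high point of Rrm2 and Tyms in its group.

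Complete separation of groups was rare in the set. In Combination against Control, Rfc5 lay wholly above and Slbp wholly below, as 8.84% of all genes tested did in either direction. Uhrf1 lay above Control in Pembrolizumab (6.12% of all genes), and Rpa2 below Control in ABL503 (2.59%). Slbp lay below ABL503 in Combination (5.93%) and above Pembrolizumab in ABL503 (3.73%). Between Combination and Pembrolizumab no gene of the set was separated (2.76%).

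The share of replication genes called outside the set lay near that of all genes in 2 of the 3 comparisons with Control. Of 42 other replication genes, 39 were tested, and 5 (12.8%) fell in Combination against Control, against 12.6% of all genes called. In Pembrolizumab against Control 1 rose and 2 fell (7.69%, against 5.55% of all genes). In ABL503 against Control none was called by limma, against 0.619% of all genes, with 2 of 39 under an unadjusted p of 0.05 (11.0% of all genes). Nasp, a histone H1 and H3 chaperone, averaged 76.5 ± 7.91 FPKM in Combination and 103 ± 10.2 in Control, a change of -0.42 (SE 0.09, adjusted p = 0.0038). The histone chaperone gene Asf1a fell by 0.45 on the same scale in Combination against Control (SE 0.11, adjusted p = 0.011), and Mcm9 by 0.47 (SE 0.15, adjusted p = 0.045). Orc4, an origin recognition subunit, fell by 0.33 in Combination and by 0.34 in Pembrolizumab, each against Control (SE 0.09 each, adjusted p = 0.024 and 0.040). Dbf4, which activates the origin-firing kinase Cdc7, averaged 30.8 ± 7.26 FPKM in Combination, 28.5 ± 2.52 in Pembrolizumab and 42.8 ± 7.54 in Control, and was called lower in both. The 1 rise was Pold4, a small subunit of polymerase delta, at 48.5 ± 6.76 FPKM in Pembrolizumab and 32.9 ± 4.91 in Control, a change of 0.55 (SE 0.11, adjusted p = 0.0071).

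Of 28 other genes of nucleotide synthesis, 26 were tested, and 2 (7.69%) were called in Combination against Control, against 12.6% of all genes. In Pembrolizumab against Control 1 was called (3.85%, against 5.55% of all genes). Cmpk1, a kinase of pyrimidine monophosphates, and Atic, of the last steps of purine synthesis, rose in Combination against Control by 0.38 (SE 0.08, adjusted p = 0.0062) and 0.94 (SE 0.30, adjusted p = 0.044). Dck, which phosphorylates salvaged deoxynucleosides, fell in Pembrolizumab to 5.73 ± 0.884 FPKM, against 8.32 ± 0.902 in Control (change -0.47, SE 0.13, adjusted p = 0.040). No other gene of that list was called against Control.

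Upstream regulators of G1/S were called in all 3 comparisons with Control. Of 32 listed, 30 were tested, and 4 rose and 2 fell in Combination against Control, 3 rose and 1 fell in Pembrolizumab against Control, and 1 rose in ABL503 against Control. The shares of all genes called in these comparisons were 12.6%, 5.55% and 0.619% in the same order. Cdk6, a D-cyclin kinase, averaged 6.19 ± 1.2 FPKM in Combination, 6.21 ± 0.678 in ABL503, 6.63 ± 0.870 in Pembrolizumab and 3.74 ± 0.772 in Control, with changes of 0.60, 0.61 and 0.69 (SE 0.14 each, adjusted p = 0.0080, 0.042 and 0.0059). Ccnd2, its cyclin D2 partner, rose by 0.46 in Combination and by 0.66 in Pembrolizumab against Control (SE 0.10 each, adjusted p = 0.0069 and 0.0010). The CDK inhibitor gene Cdkn2d fell by 0.65 in Combination and by 0.60 in Pembrolizumab against Control (SE 0.12 each, adjusted p = 0.0020 and 0.0071), and Cdkn1b, which encodes p27, fell by 0.71 in Combination (SE 0.15, adjusted p = 0.0037). E2f2 averaged 1.76 ± 0.157 FPKM in Combination, 2.41 ± 0.314 in Pembrolizumab and 1.32 ± 0.343 in Control and was called in Pembrolizumab (change 0.56, SE 0.12, adjusted p = 0.0095). Over these 30 genes the median change against Control was 0.22 in Combination, 0.06 in ABL503 and -0.06 in Pembrolizumab.

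Among markers of other cell types, the 7 tumour and epithelial genes summed to 3.53 to 7.74 FPKM in Combination, 7.55 to 12.7 in ABL503, 4.72 to 10.5 in Pembrolizumab and 7.94 to 12.9 in Control, with Krt20 at 0 in every library. The Combination libraries thus lay below every Control library on this sum, as they did for Slbp, while the Pembrolizumab libraries overlapped Control on it. The highest values in any library were 7.83 FPKM for Epcam, 5.88 for Cdh1 and 3.64 for Krt18. Krt8 reached 1.02 FPKM, and Krt19 and Cldn7 stayed under 1 FPKM. Of the 7 genes, 3 reached a mean of 1 FPKM in Combination, ABL503 and Pembrolizumab and 2 in Control. The part of this sum, and of the macrophage sum, in the changes of Slbp, Cdt1 and Ccne2 was not tested.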

How the data were processed

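RNA from sorted CD8+ T cells was made into libraries with the SMART-Seq v4 Ultra Low Input kit, per the labels, in 4 groups of 5. Per the submitters' processing notes, HISAT2, StringTie and GRCm38 (mm10) were used. Versions, annotation release and use of strand are not given in the sources used here. The table the authors deposited holds FPKM, a unit inferred from its values. No sample column was left out, and depth is unknown.

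The test covered the 11794 of 45777 genes that reached 1 FPKM in 5 or more libraries (31149 were above 0 in any library). Group means on log2(FPKM + 1) were fitted in R 4.3.3 by limma 3.58.1, with an intensity trend and 16 residual degrees of freedom, for 9 comparisons. Tests were two-sided, with Benjamini-Hochberg adjustment over all genes tested within a comparison. Python 3.11.15 and pandas 2.3.3 made the summaries. The steps were tested on simulated data.

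The members, the gene lists and the tests were chosen with earlier results of these data known. Values in every library were given for members past an adjusted p of 0.05 in any comparison and for Mcm2, Mcm5, Pcna, Rrm2, Tyms, Cdc6, Ccne1, Ccne2, E2f1, Slbp, Uhrf1 and Dnmt1. From each neighbouring list, up to 4 genes per comparison with Control were named by smallest p among those called, except for some results outside the 48 genes that are not reported here. Members named outside this rule were chosen after their values were seen. Marker lists of dendritic cells, neutrophils, NK cells, B cells, fibroblasts and endothelium were also summed. Exon overlaps come from the GENCODE annotation of GRCm38. In all, 15 of the 48 members overlapped a gene on the opposite strand. Among them were Rfc4 with Eif4a2 at 179 FPKM, Fen1 with Tmem258 at 165 FPKM and Mcm7 with Cops6 at 163 FPKM.

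Tried as alternatives were quantile normalization, rescaling to an equal sum, a pseudocount of 0.1, testing without the filter, the replicate number as a block, a threshold of 0.1 on the adjusted p, array weights, fits of the compared groups alone and leaving out each library in turn. Leaving out the 2 libraries of lowest array weight was added after the data were seen. No libraries were identical, and the highest correlation between libraries was 0.977.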

Additional observations from a re-analysis of the deposited data

Results flagged for a closer look

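A value was singled out where the highest or lowest of 5 libraries lay apart from the nearest other by more than 0.71 of the range of its group. Of 196 groups checked, 18 were singled out. For a single group, chance gives about 1 in 20. The 196 groups share the same 20 libraries, whose genes moved together, and include medians of those genes. The 18 therefore cannot be set against that rate. Pembrolizumab 2 accounted for 10 of the 18, Combination 2 for 4, ABL503 1 for 2, and Control 1 and Control 4 for 1 each.

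In Pembrolizumab 2, the helicase subunit genes Mcm4 and Mcm7 stood at 27.4 and 37.0 FPKM, the helicase activators Cdc45 and Gins1 at 18 and 11.1 FPKM, and the primase gene Prim1 at 37.4 FPKM. There too, the polymerase delta gene Pold2 stood at 29.1 FPKM, the clamp loader gene Rfc4 at 50.6 FPKM, the ligase gene Lig1 at 33.8 FPKM and the reductase gene Rrm1 at 32.1 FPKM. The median deviation of the 48 genes in that library was 0.35, the nearest other library of its group being at -0.16. The 20 genes of G2 and mitosis were high in the same library, by a median of 0.36.

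In Combination 2, Cdc45 stood at 20.3 FPKM, the fork protector Tipin at 99.1, the clamp loader gene Rfc2 at 119 and thymidine kinase Tk1 at 40.3 FPKM. In ABL503 1, Cdc6 stood at 8.39 FPKM and Rfc4 at 43.5 FPKM. In Control, Cdt1 stood at 29.2 FPKM in library 1, and Rrm1 at 24.6 FPKM in library 4. Each of these was the highest library of its group.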

How the results depend on the processing

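Of the 48 genes, the counts called moved by more than 1.5 times as follows. In Pembrolizumab against Control, 1 call became 0 without the filter, 0 with the replicate block, 0 in a fit of only the groups compared, 2 with array weights, 3 with rescaling to an equal sum and 4 at an adjusted p under 0.1. In the same order, 321, 617, 406, 685, 691 and 1154 of all genes were called. The member count stayed at 1 with quantile normalization, for Slbp in place of Ccne2, with 698 of all genes called. In Combination against Control, 2 calls became 1 without the filter (Slbp) and 1 in a fit of only the groups compared (Rfc5), with 939 and 1010 of all genes called. The member count was 1 without the 2 libraries of lowest array weight (Control 1 and ABL503 3), with 1102 of all genes called. It was 7 at an adjusted p under 0.1. Of those 7, 5 were higher in Combination and 2 lower, with 2295 of all genes called at that threshold. In Combination against ABL503, 1 call became 0 in a fit of only the groups compared, with 400 of all genes called. In ABL503 against Pembrolizumab, 0 became 1, for Slbp, with quantile normalization, rescaling, array weights and an adjusted p under 0.1. There 127, 197, 301 and 314 of all genes were called in the same order. In the main effect of pembrolizumab, 1 call became 3 with quantile normalization, 4 with rescaling, 3 with array weights, 5 at an adjusted p under 0.1 and 2 without the 2 libraries of lowest array weight. Of all genes, 1561, 1634, 1802, 2370 and 1133 were called in the same order. The cause of these moves in the member counts was not tested.

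Leaving out each library in turn gave 0 to 2 calls in Pembrolizumab against Control, 0 to 6 in Combination against Control, 0 to 2 in Combination against Pembrolizumab, 0 to 1 in Combination against ABL503, 0 to 1 in ABL503 against Pembrolizumab, 1 to 4 in the main effect of pembrolizumab and 0 to 3 in that of ABL503. ABL503 against Control and the interaction stayed at 0. The 0 in Combination against Control came without Combination 4, and the 6 without Combination 3, when Tipin, Prim1, Rpa3 and Uhrf1 were called higher beside Cdt1 and Slbp. Over all genes, 1246 were called without Combination 4 and 1592 without Combination 3. Cdt1 was also not called without Control 1 or Combination 5, and Slbp without Control 4. The highest counts in Combination against Pembrolizumab, ABL503 against Pembrolizumab and the main effect of ABL503 came without Pembrolizumab 2. The 4 calls in the main effect of pembrolizumab came without Combination 3, with 1640 of all genes called.

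With the replicate number as a block, Ccne2 in Pembrolizumab against Control had an adjusted p of 0.051, and no other member call changed. Libraries sharing a number did not deviate together: 2 of 30 such pairs had a correlation above 0.1, with a median of 0.026. The numbers were therefore not taken as pairs.

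Without the filter, the counts over all genes were 939 in Combination against Control, where the filtered test called 1484, 321 in Pembrolizumab against Control, where it called 655, and 42 in ABL503 against Control, where it called 73. No change of a named gene reversed sign past the threshold. Depth is unknown, so no limit from counting can be given. Genes near 1 FPKM, such as Mcm10, Pole and Pold1, have changes pulled towards 0 by the pseudocount, and a pseudocount of 0.1 changed no member count.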

Other observations

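Of 30 genes of replication stress and repair, 22 were tested. No gene of this list was called in ABL503 or Pembrolizumab against Control by limma, with 3 and 1 of 22 under an unadjusted p of 0.05. Of all genes, 0.619% and 5.55% were called in these comparisons, and 11.0% and 20.2% were under that unadjusted p.

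All 20 genes of G2 and mitosis were tested, and Cenpf, a kinetochore protein gene, was the only one called against Control, at 1.57 ± 0.493 FPKM in Combination and 0.708 ± 0.356 in Control (change 0.60, SE 0.16, adjusted p = 0.020). That is 5% of the list, against 12.6% of all genes called in that comparison. In Combination against Control, 17 of the 20 were above 0, as 45.8% of all genes were, with a median of 0.35, against -0.04 over all genes tested. The median was 0.05 in ABL503 against Control and 0.02 in Pembrolizumab against Control, where none was called (1 and 2 of 20 under an unadjusted p of 0.05). Of all genes, 0.619% and 5.55% were called there, and 11.0% and 20.2% were under that unadjusted p.

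The other marker lists were low. B and plasma cell genes summed to at most 4.08 FPKM in Combination, 3.48 in ABL503, 3.02 in Pembrolizumab and 8.37 in Control. Neutrophil genes reached at most 0.722, 13.6, 1.05 and 0.0406 FPKM in the same order, and dendritic cell genes 21.7, 32.2, 21.2 and 21.2 FPKM. NK cell genes reached at most 15.0, 13.5, 12.7 and 14.7 FPKM, CD4 and regulatory T-cell genes 14.7, 7.31, 5.51 and 10.7 FPKM, and fibroblast and endothelial genes 3.99, 2.98, 2.08 and 4.16 FPKM.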
